A study of Mus musculus with 6 samples.

Results

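The 10 genes described here encode receptors through which appetite hormones and feeding peptides act on neurons: Lepr, Ghsr, Glp1r, Mc3r, Mc4r, Npy1r, Npy2r, Npy5r, Mchr1 and Hcrtr2. They were chosen by symbol, and each has an entry among the 23282 gene entries of the count tables. The 6 libraries were made from forebrain RNA of wild-type male C57BL/6J mice aged 8 to 10 weeks, 3 from mice kept on normal chow (NCD) and 3 from mice given a high-fat diet (HFD) with 60% of its kilocalories as fat for 10 days. The diets are the only difference that the labels give between the groups. The tissue was a hemisphere without olfactory bulb and cerebellum, so each library mixes hypothalamus with cortex, striatum, hippocampus and other regions. The labels do not say that replicates came from separate animals, so the p-values measure the spread between these libraries only, which may be technical. In such bulk tissue, fewer cells of a type and less RNA per cell cannot be told apart.

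These receptors read the body's energy state. Leptin from fat tissue acts on LEPR, a cytokine receptor, and ghrelin from the stomach and GLP-1 from the gut act on the G-protein-coupled receptors GHSR and GLP1R. In the hypothalamus, POMC neurons release melanocortins that activate MC3R and MC4R and lower food intake, whereas AgRP neurons release AGRP, which blocks these receptors, and NPY, which acts on its own receptors to raise it. Melanin-concentrating hormone (MCH) and the orexins are made in the lateral hypothalamus, while their receptors lie on neurons of many regions.

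None of the 10 receptor genes differed between the diets at an adjusted p under 0.05. Npy1r, Npy2r and Mchr1 were the highest of them, at 12.6 to 15.6 CPM (counts per 1000000 counts), Mc4r and Npy5r followed at 3.93 to 5.26 CPM, and Lepr, Hcrtr2, Mc3r and Ghsr lay at 0.320 to 1.08 CPM. Glp1r had no count in any library. The widest gap between the diets relative to its error was that of Npy2r, at 11.9 ± 1.78 CPM on NCD and 15.3 ± 2.16 CPM on HFD (SD, n = 3 each).

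Npy1r and Npy5r are neighbours on chromosome 8 that are read in opposite directions, with annotated starts 9064 bases apart. Npy1r lies at chr8:66697192-66706792 on the plus strand and Npy5r at chr8:66679965-66688128 on the minus strand (GENCODE vM21, GRCm38). Their start regions are shown because this neighbouring pair differed in level in every library, and that of Glp1r because it was the gene without a count. The sequences are from RefSeq (GRCm38.p6), from 250 bases before to 50 bases after the RefSeq start, which need not be the GENCODE start. They read 5′ to 3′ on the gene's strand, with each CpG (the letters CG, the same on both strands) in capitals.
Npy1r, chr8:66697172-66697471, plus strand: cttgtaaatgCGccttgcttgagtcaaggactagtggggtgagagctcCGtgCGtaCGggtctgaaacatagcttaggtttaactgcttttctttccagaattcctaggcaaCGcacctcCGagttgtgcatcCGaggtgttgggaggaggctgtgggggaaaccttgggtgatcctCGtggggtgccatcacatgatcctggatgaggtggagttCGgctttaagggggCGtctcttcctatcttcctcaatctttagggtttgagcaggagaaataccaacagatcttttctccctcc
Npy5r, chr8:66688045-66688344, minus strand: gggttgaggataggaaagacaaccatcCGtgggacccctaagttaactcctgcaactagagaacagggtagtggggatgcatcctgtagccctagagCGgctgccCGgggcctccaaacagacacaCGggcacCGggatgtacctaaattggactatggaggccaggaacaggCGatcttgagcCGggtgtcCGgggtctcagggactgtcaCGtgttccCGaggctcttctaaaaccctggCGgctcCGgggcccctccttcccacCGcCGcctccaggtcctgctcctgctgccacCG
Glp1r, chr17:30901617-30901916, plus strand: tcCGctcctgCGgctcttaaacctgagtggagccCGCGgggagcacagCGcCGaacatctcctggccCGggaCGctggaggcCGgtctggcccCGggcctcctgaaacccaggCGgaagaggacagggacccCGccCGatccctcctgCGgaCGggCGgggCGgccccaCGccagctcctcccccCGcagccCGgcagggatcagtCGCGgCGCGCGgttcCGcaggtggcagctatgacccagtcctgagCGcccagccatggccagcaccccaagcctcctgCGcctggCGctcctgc
The windows hold 10 CpG for Npy1r, 15 for Npy5r and 29 for Glp1r. The median over 32851 RefSeq promoters of this length was 7 CpG. At least as many CpG as in the window were found in 43.5% of these promoters for Npy1r, 34.6% for Npy5r and 12.9% for Glp1r. Windows were found for 9 of the 10 genes. These are descriptions of sequence and measure no activity.

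The 6 libraries held between 6842785 and 9689372 counts. CPM values were scaled with TMM and not divided by transcript length, since QuantSeq reads start near the poly(A) tail. A floor of 3 counts corresponded to 0.316 to 0.431 CPM in a library and 0.0596 CPM over all 6, and it covers counting error only. The ribosomal RNA precursor entry Rn45s took 5.55% to 8.75% of the counts. HFD replicate 3 stood apart most: its summed marker level lay outside the range of the other 5 libraries for 9 of 11 marker lists. NCD replicate 3 did so for 5 lists and each remaining library for 2. For HFD replicate 3 the ratio was widest for pituitary and hypothalamus. The 9 pituitary markers summed to 1263 CPM there and to 2.18 to 8.94 CPM in the others. The 12 hypothalamus markers summed to 8.10 CPM there and to 19.7 to 49.0 CPM in the others. Oxt had the most counts of these markers, with 24 in HFD replicate 3 and 82 to 330 in the others. Avp and Trh were also lowest in HFD replicate 3. Sim1 (5 counts, 2 to 5 in the others) and Nkx2-1 (6 counts, 4 to 13 in the others) were not, so the sum mainly follows a few peptide genes. Midbrain markers summed to 134 CPM in HFD replicate 3 against 163 to 187 CPM in the others, meninges markers to 125 against 154 to 173 CPM, and hippocampus markers to 81.1 against 90.1 to 112 CPM. The midbrain markers Th and Foxa2 were 2 of 7 tested with an unadjusted p under 0.05 (edgeR), both lower on HFD. Without HFD replicate 3, 0 of 7 had one, in a fit with fewer HFD libraries. Over all genes, 507 of 13771 had one with all libraries and 449 of 14159 without HFD replicate 3. The counts and medians of the receptor genes and of the lists are therefore also given without it. Of the hypothalamus markers, Otp and Nkx2-4 were at 0 in all libraries and 3 of the 12 passed the filter on low counts. Over all 6 libraries, neuron markers summed to between 5440 and 5749 CPM, striatum markers to between 752 and 802 CPM, and cortex markers to between 532 and 629 CPM, with HFD replicate 3 lowest for neurons and highest for cortex.

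The hormone receptors had few counts or none. Lepr, at chr4:101717404-101815352 on the plus strand, encodes the leptin receptor, whose long form signals through JAK2 and STAT3. It had 10, 9 and 12 counts in NCD replicates 1, 2 and 3, and 4, 10 and 10 counts in HFD replicates 1, 2 and 3. HFD replicate 1 was the low library and the groups overlapped. The means were 1.15 ± 0.161 CPM on NCD and 1.01 ± 0.404 CPM on HFD (SD, n = 3 each). The log2 fold change was -0.17 with a standard error of 0.51 (adjusted p = 0.986, edgeR's quasi-likelihood test). It was 0.085 without HFD replicate 1 and -0.43 without HFD replicate 3, so the sign rested on which library was left out. The annotation gives Lepr 4 coding transcripts with 4 separate 3′ ends, 1 of them without a stop codon. The counts are summed over the gene, so they do not separate the long form from the short forms.

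Ghsr, at chr3:27371351-27378010 on the plus strand, encodes the ghrelin receptor, which raises food intake when activated. It had 1, 1 and 5 counts in NCD libraries and 2, 8 and 0 in HFD libraries. Most libraries were at or under the floor, and the groups overlapped. The fit without a filter gave a log2 fold change of 0.63 with a standard error of 1.18 (adjusted p = 0.969, edgeR). Leaving out 1 library moved it between -0.80 (without HFD replicate 2) and 1.70 (without NCD replicate 3). With these counts and this spread, no diet difference in Ghsr was detected.

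Glp1r, at chr17:30901817-30940791 on the plus strand with 13 exons, encodes the receptor for GLP-1, a gut and brainstem peptide that lowers food intake. It had 0 counts in each of the 6 libraries. Over 50295712 counts this allows a level of up to 0.0596 CPM, as far as reads from Glp1r are assigned to its entry. Drd2, which encodes an abundant dopamine receptor of the striatum, had 1 count over all libraries, whereas Drd1, the other main striatal dopamine receptor, had 930 to 1622 per library. A gene listed at 0 in these tables need therefore not be unexpressed. The annotated 3′ end of Glp1r carries the polyadenylation signal AATAAA (searched on the transcript strand) within its last 50 bases, as do 49.6% of 47808 complete coding transcripts. Whether the 3′ end used for counting matters here was not tested.

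Of the melanocortin receptors, Mc4r was the higher. Mc4r, an intronless gene at chr18:66857704-66860506 on the minus strand, encodes the receptor whose loss causes obesity in mice and humans. It had 45, 22 and 67 counts in NCD libraries and 35, 47 and 47 in HFD libraries. All 3 HFD libraries lay between the lowest and the highest NCD library. The means were 4.99 ± 2.39 CPM on NCD and 5.54 ± 0.793 CPM on HFD (SD, n = 3 each), a log2 fold change of 0.15 with a standard error of 0.34 (adjusted p = 0.980, edgeR). It was -0.19 without NCD replicate 2 and 0.50 without NCD replicate 3. Within a diet, the variance of the Mc4r counts was 5.08 times that of counting error alone, measured as the chi-square per degree of freedom. Mrap2, an accessory protein that modulates MC4R, had a log2 fold change of -0.11 (SE 0.19, adjusted p = 0.979, edgeR).

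Mc3r, an intronless gene at chr2:172248492-172251114 on the plus strand, encodes the second melanocortin receptor of the brain. It had 1, 5 and 7 counts in NCD libraries and 3, 4 and 0 in HFD libraries. The HFD library without a count was replicate 3, the library with the lowest hypothalamus marker sum, and the part of that sum in the Mc3r count was not tested. The log2 fold change was -0.66 with a standard error of 1.13 (adjusted p = 0.964, edgeR without a filter), and it was -0.12 without HFD replicate 3. Mc3r and Mc4r differed in level by more than their spread, with all 6 Mc4r values between 2.37 and 7.05 CPM and all Mc3r values at or under 0.736 CPM. Their longest transcripts have 2803 and 2623 bases, and per kilobase the levels were 1.88 and 0.144 CPM.

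The NPY receptors held the highest 2 CPM levels of the 10 genes. Npy1r encodes the Y1 receptor, a postsynaptic receptor that takes part in the feeding response to NPY. It had 134, 136 and 162 counts in NCD libraries and 88, 152 and 117 in HFD libraries. HFD replicate 1 was the low library, and the groups overlapped. The means were 16.1 ± 1.26 CPM on NCD and 15.1 ± 2.14 CPM on HFD (SD, n = 3 each). The log2 fold change was -0.085 with a standard error of 0.17 (adjusted p = 0.979, edgeR), and the 95% interval of the HFD to NCD ratio ran from 0.738 to 1.20. The interval leaves room for a fall or a rise within those bounds.

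Npy2r, at chr3:82538383-82548084 on the minus strand, encodes the Y2 receptor, which sits on NPY nerve endings as an inhibitory autoreceptor and also binds the gut peptide PYY. It had 108, 92 and 119 counts in NCD libraries and 121, 120 and 113 in HFD libraries. In CPM, HFD replicates 1 and 3 (17.4 and 15.5) lay above all NCD libraries (9.91 to 13.3), while HFD replicate 2 (13.1) lay below NCD replicate 1. The log2 fold change was 0.36 with a standard error of 0.18, an HFD to NCD ratio of 1.28 with a 95% interval from 0.980 to 1.68 (adjusted p = 0.979, edgeR). The unadjusted p was 0.0674. The sign was the same whichever library was left out, with log2 fold changes from 0.24 (without NCD replicate 2) to 0.47 (without HFD replicate 2). Without HFD replicate 2 the unadjusted p was 0.0388, the lowest of any member under any setting.

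Npy5r encodes the Y5 receptor, which with Y1 mediates NPY-driven feeding. It had 25, 51 and 24 counts in NCD libraries and 19, 43 and 37 in HFD libraries. NCD replicate 2 was the highest library and HFD replicates 2 and 3 followed, so the groups overlapped. The means were 3.70 ± 1.58 CPM on NCD and 4.17 ± 1.26 CPM on HFD (SD, n = 3 each), with a log2 fold change of 0.18 and a standard error of 0.36 (adjusted p = 0.979, edgeR). It was 0.58 without NCD replicate 2 and -0.042 without NCD replicate 3. The within-diet chi-square per degree of freedom was 4.68 for Npy5r, 2.26 for Npy2r and 1.16 for Npy1r, so Npy1r varied about as much as counting error gives.

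**Figure D1:**
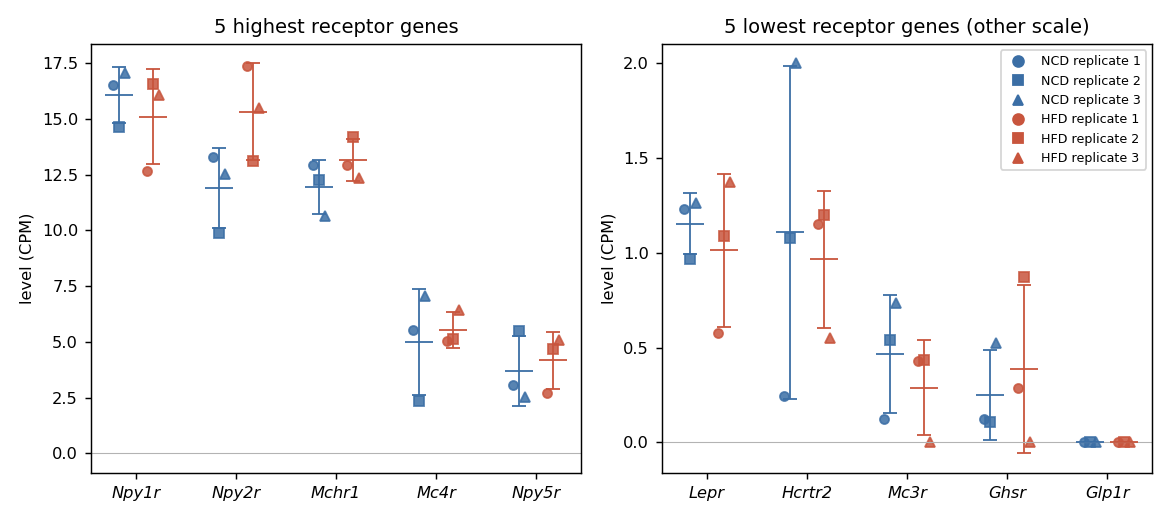
Level in CPM (TMM-scaled, linear axes, a separate scale for each panel) of the 10 receptor genes in the 3 NCD and 3 HFD libraries. Points are libraries, and the horizontal line and bar are the mean and SD of a diet. Npy1r, Npy2r and Mchr1 lie between 9.91 and 17.4 CPM in every library, Mc4r and Npy5r between 2.37 and 7.05, and Glp1r at 0, and in no gene are the diets separate.

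The balance of the 3 NPY receptor genes within a library does not depend on depth or scaling, and it was examined after the counts were seen. Npy1r took 50.2%, 48.7% and 53.1% of their summed counts in NCD libraries and 38.6%, 48.3% and 43.8% in HFD libraries. All 3 HFD shares lay below all NCD shares, although HFD replicate 2 and NCD replicate 2 were nearly equal. The mean share was 50.7% ± 2.23 on NCD and 43.6% ± 4.83 on HFD (SD, n = 3 each; exact two-sided permutation test, p = 0.1, adjusted p = 0.3 over 3 genes). With 3 libraries against 3, an unadjusted p of 0.1 is the smallest the exact test allows, so it cannot pass 0.05. The share of Npy2r was 40.4%, 33.0% and 39.0% on NCD and 53.1%, 38.1% and 42.3% on HFD (exact permutation test, p = 0.3, adjusted p = 0.45). HFD replicate 1 was the library in which Npy2r outnumbered Npy1r, at 1.38 Npy2r counts per Npy1r count, against 0.676 to 0.966 in the other 5. Npy5r took 7.87% to 18.3% on NCD and 8.33% to 13.9% on HFD (exact permutation test, p = 1, adjusted p = 1). Without HFD replicate 1 the difference in the Npy1r share, HFD minus NCD, was -4.65 percentage points, against -7.13 with all libraries.

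**Figure D2:**
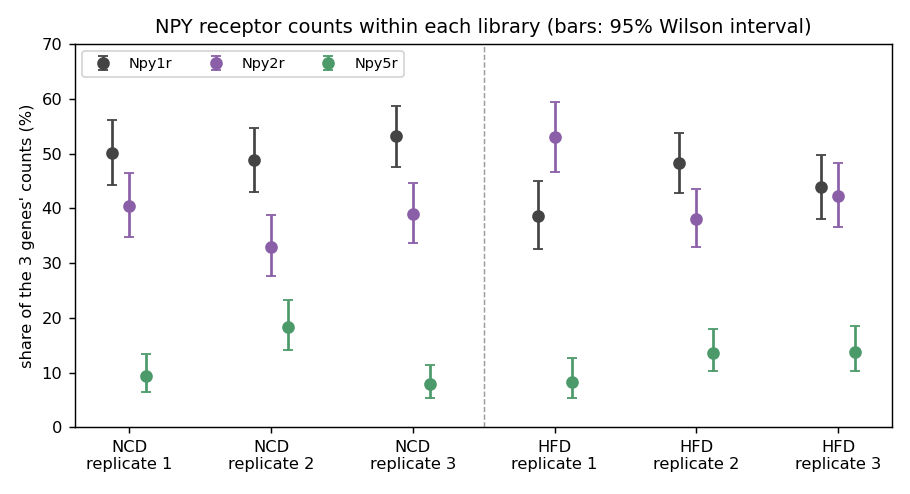
Share in percent of Npy1r, Npy2r and Npy5r in their summed counts, for each of the 6 libraries (horizontal axis). Bars are 95% Wilson intervals, which cover counting error only. Npy1r lies at 48.7% to 53.1% in NCD libraries and 38.6% to 48.3% in HFD libraries.

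Mchr1, at chr15:81235499-81238964 on the plus strand, encodes the MCH receptor of the mouse, whose activation raises food intake. It had 105, 114 and 101 counts in NCD libraries and 90, 130 and 90 in HFD libraries. Its SD over the 6 libraries was the smallest relative to the mean among the 9 genes with counts (12.6 ± 1.17 CPM, SD, n = 6), and the groups overlapped. The means were 11.9 ± 1.19 CPM on NCD and 13.2 ± 0.936 CPM on HFD (SD, n = 3 each). The log2 fold change was 0.14 with a standard error of 0.18 (adjusted p = 0.979, edgeR), with a 95% interval of the ratio from 0.854 to 1.43. HFD replicate 3, with 60 counts of the ligand gene Pmch against 264 to 416 in the other 5 libraries, had 12.4 CPM of Mchr1, within the range of the others.

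Hcrtr2, at chr9:76225880-76323856 on the minus strand, encodes the orexin receptor that binds both orexins and is known for its part in wakefulness. It had 2, 10 and 19 counts in NCD libraries and 8, 11 and 4 in HFD libraries. NCD replicate 1 was the lowest library and NCD replicate 3 the highest, so the HFD libraries lay within the NCD range. It did not pass the filter on low counts, and the fit without a filter gave a log2 fold change of -0.21 with a standard error of 0.67 (adjusted p = 0.983, edgeR). Leaving out 1 library moved it between -0.65 and 0.52, without NCD replicates 1 and 3 respectively, and it was 0.07 without HFD replicate 3.

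The order of the CPM levels had 2 clear steps. Npy1r, Npy2r and Mchr1 did not differ beyond their spread, and neither did Mc4r and Npy5r. The lowest Mchr1 value lay above the highest Mc4r value, with means 2.39-fold apart, and the lowest Npy5r value above the highest Lepr value, with means 3.63-fold apart. Neighbours among Lepr, Hcrtr2, Mc3r and Ghsr overlapped. Divided by the length of the longest transcript, the order among the 10 changed in 5 places, with Mchr1 first at 5.73 CPM per kilobase, Npy1r at 5.19 and Npy2r at 4.05. The 5 highest genes were the same on both scales. Even Npy1r was below the middle of the forebrain transcriptome, with 41.9% of the genes past the filter at a lower mean CPM.

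Across the 10 genes, 6 passed the filter on low counts, 3 had counts but were under it, and 1 had none. Of the 9 with counts, 0 had an adjusted p under 0.05 and 0 an unadjusted p under 0.05 by edgeR's quasi-likelihood test. The counts were also 0 and 0 by DESeq2 and by limma on quantile-normalized values. Over all 13771 genes tested, 3.68% had an unadjusted p under 0.05, 0% an adjusted p under 0.05, and 8.81% had groups that did not overlap. In the fit without a filter, which gave the values of Ghsr, Mc3r and Hcrtr2, 4.76% of 18936 genes had an unadjusted p under 0.05. The groups overlapped for all 10 members, which beside these background shares is no result about them as a set. By sign, 5 of the 9 were higher and 4 lower on HFD. Their median log2 fold change was 0.14, and -0.00245 over all genes tested, and it ranged from -0.16 to 0.16 when 1 library was left out. Without HFD replicate 3 the counts were again 0 and 0, and the median was 0.03. The members' counts summed to 431, 440 and 516 on NCD and 370, 525 and 418 on HFD, in libraries of unequal depth. In CPM the sums were 53.1, 47.4 and 54.3 on NCD and 53.2, 57.3 and 57.4 on HFD, and the groups overlapped.

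**Figure D3:**
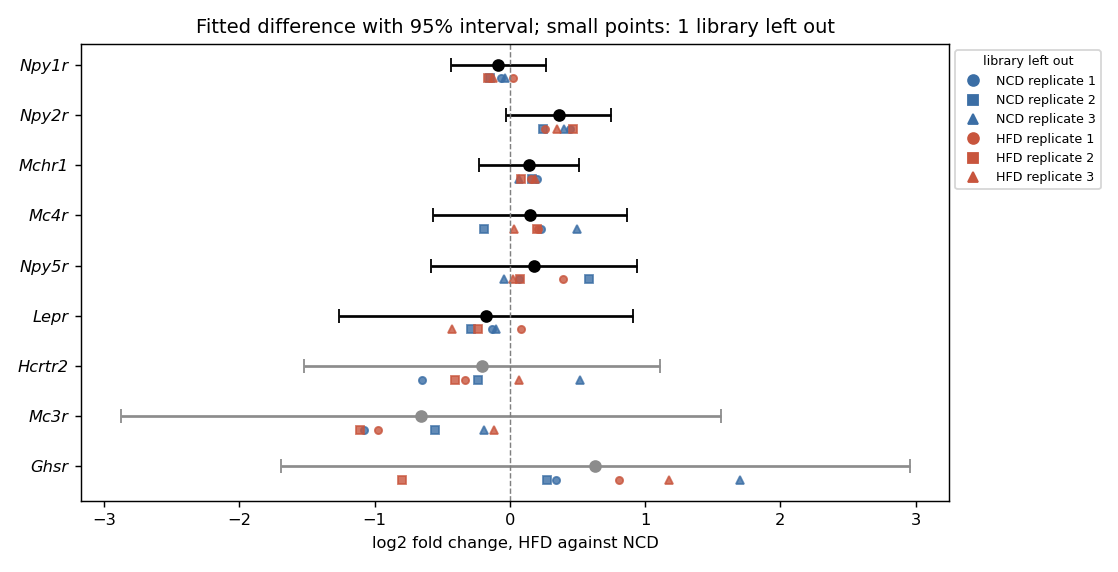
Log2 fold change, HFD against NCD, of the 9 receptor genes with counts (large points) with 95% intervals from edgeR, in black for genes past the filter and grey for genes from the fit without a filter. Small points are the values with 1 library left out, coloured and shaped by that library. All 9 intervals include 0, and they widen from Npy1r (-0.44 to 0.27) to Ghsr (-1.69 to 2.96).

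Most ligands of these receptors are made by small groups of neurons or outside the brain, and HFD replicate 3 stood apart for 3 of their genes, Pmch, Hcrt and Pomc. Npy, the highest ligand gene, had 1237, 1412 and 1386 counts on NCD and 1073, 1411 and 999 on HFD. Its log2 fold change was -0.02 with a standard error of 0.10 (adjusted p = 0.995, edgeR), and NPY is also made by many cortical and striatal interneurons. Pmch, which encodes MCH, had 274, 408 and 415 counts on NCD and 264, 416 and 60 on HFD. Hcrt, which encodes the orexins, had 105, 161 and 169 counts on NCD and 92, 140 and 7 on HFD. Both were lowest in HFD replicate 3, where the hypothalamus marker sum was also lowest. Pomc, the melanocortin precursor, is made in the hypothalamus and in the pituitary. It had 25, 43 and 11 counts on NCD and 14, 35 and 89 on HFD, and its highest library was HFD replicate 3, the library with the high pituitary marker sum. The part of these tissues in the Pmch, Hcrt and Pomc counts was not tested. Agrp had at most 6 counts in a library, and Pyy and Ppy had none. Lep, the leptin gene, had 3, 2 and 3 counts on NCD and 0 in each HFD library (adjusted p = 0.941, edgeR without a filter). The unadjusted p of Lep was 0.0380, and as all libraries were at or under the floor, no fold is given. In that fit 4.76% of 18936 genes had an unadjusted p under 0.05. Of the 11 ligand genes, 4 passed the filter and 0 of these had an unadjusted p under 0.05, with a median log2 fold change of -0.21. Without HFD replicate 3 the count was again 0 and the median was 0.023, so its sign rested on that library.

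**Figure D4:**
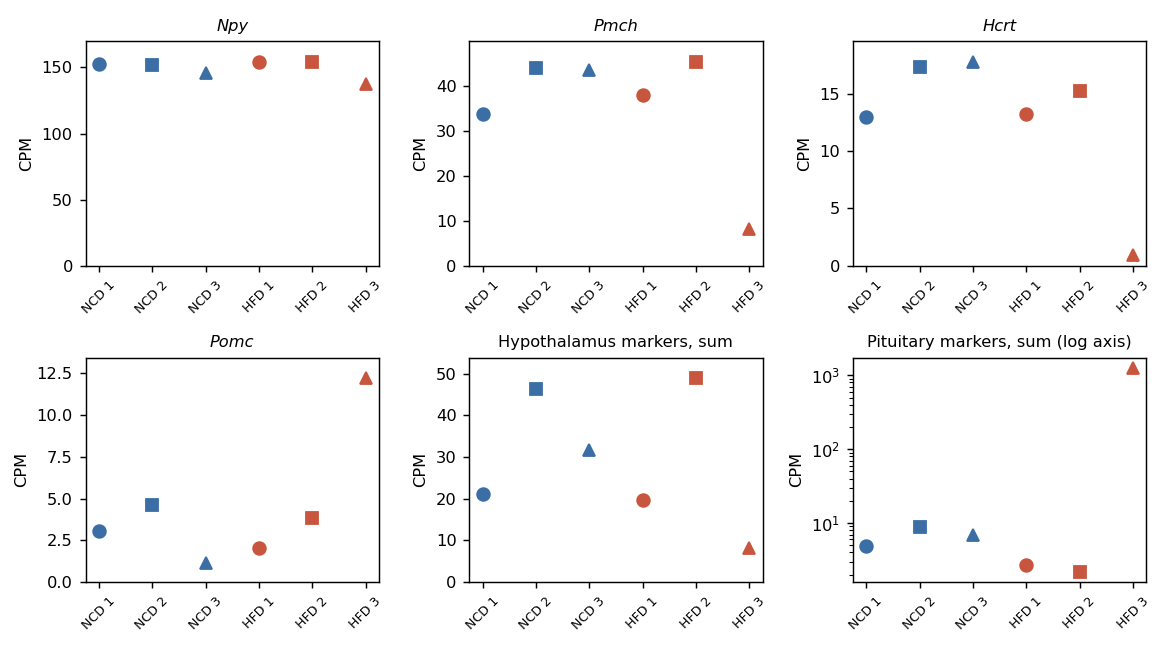
CPM (TMM-scaled) in each of the 6 libraries of Npy, Pmch, Hcrt and Pomc and of the summed hypothalamus and pituitary markers, with NCD libraries in blue and HFD libraries in red. Axes are linear from 0, except for the pituitary sum, which is on a log axis. HFD replicate 3 is lowest for Pmch, Hcrt and the hypothalamus sum (8.10 CPM) and highest for Pomc and the pituitary sum (1263 CPM).

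The genes that make the peptides and carry the receptors' signals were also tested. Of 8 peptide processing genes, 7 passed the filter and 0 had an unadjusted p under 0.05, with a median log2 fold change of -0.04, and without HFD replicate 3 the count was 0 and the median -0.024. The highest of them was Cpe, which trims peptide precursors, with 15790, 17911 and 17363 counts on NCD and 12931, 17214 and 13049 on HFD (log2 fold change -0.04, SE 0.08). Of 11 genes of leptin receptor signalling, 10 were tested and 0 had an unadjusted p under 0.05, with a median of -0.03. Without HFD replicate 3, 1 of 11 tested was higher on HFD at an unadjusted p under 0.05 and the median was -0.097. Without NCD replicate 1 or HFD replicate 1, 1 of 11 was lower. Over all genes, 449 of 14159 had such a p without HFD replicate 3. The numbers were 494 of 14126 without NCD replicate 1 and 773 of 14163 without HFD replicate 1. Stat3, the transcription factor downstream of LEPR, had a log2 fold change of -0.25 (SE 0.13, adjusted p = 0.979, edgeR). Socs3, a STAT3 target that inhibits the receptor, had 19, 24 and 30 counts on NCD and 32, 51 and 16 on HFD (log2 fold change 0.62, SE 0.37, adjusted p = 0.979, edgeR). HFD replicates 1 and 2 were the 2 highest Socs3 libraries and HFD replicate 3 the lowest. Stat3, Socs3 and Mrap2 were singled out after their values were seen. Ptpn11, the most abundant gene of this list, encodes the phosphatase SHP2 and had a log2 fold change of -0.01 (SE 0.10). All 17 genes of receptor partners and G proteins were tested, and 0 had an unadjusted p under 0.05, with a median of -0.08. Without HFD replicate 3 the count was 0 and the median -0.06, and without NCD replicate 2 or HFD replicate 2, 1 gene was lower. Over all genes, 571 of 13886 had such a p without NCD replicate 2 and 561 of 13920 without HFD replicate 2. Gnas, which encodes the stimulatory G protein used by MC3R, MC4R and GLP1R, had a log2 fold change of 0.00465 (SE 0.09).

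Of 32 other receptor genes tied to feeding, 13 passed the filter. Ramp1, a partner of the calcitonin receptor in the amylin receptor, had 439, 491 and 447 counts on NCD and 372, 551 and 539 on HFD. It was the 1 tested gene with an unadjusted p under 0.05, with a log2 fold change of 0.28 and a standard error of 0.13 (adjusted p = 0.979, edgeR). Its unadjusted p was 0.0441 (edgeR), and 3.68% of all genes tested had one under 0.05. The number of tested list genes with such a p was 0 by DESeq2, by limma on quantile-normalized values and with library size alone. It was also 0 without NCD replicate 1, NCD replicate 3 or HFD replicate 2. With no filter it was 3 of 29, beside 4.76% of the 18936 genes in that fit. Over all genes, 375 of 13771 had such a p by DESeq2, 511 by limma and 455 with library size alone. The numbers were 494 of 14126 without NCD replicate 1, 411 of 13942 without NCD replicate 3 and 561 of 13920 without HFD replicate 2. Without HFD replicate 3, 1 of 13 list genes had one, as did 449 of 14159 over all genes. The median log2 fold change of the list was 0.11 there, against 0.087 with all libraries. Ramp1 was also the most abundant gene of this list. Nmbr, the neuromedin B receptor gene, had 2, 1 and 0 counts on NCD and 3, 12 and 8 on HFD. Its CPM values did not overlap between the diets, but the nearest libraries, NCD replicate 1 and HFD replicate 1, had 2 and 3 counts. Of genes past the filter 8.81% had no overlap, and the share under the filter was not computed. Nmbr was under the filter, and the fit without a filter gave an adjusted p of 0.860 (edgeR). The unadjusted p was 0.0106 (edgeR without a filter), and 4.76% of the 18936 genes in that fit had one under 0.05. Npy4r, Nmur1 and Gfral had no count in any library. In all 5 of these lists, 0 genes had an adjusted p under 0.05 by edgeR, as did 0% of all genes tested.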

How the data were processed

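RNA of mouse forebrain was measured in 3 NCD and 3 HFD libraries prepared with the QuantSeq 3′ kit. The authors aligned the reads to mm10 with Bowtie2, counted unique and multiple alignments per gene with Bedtools, and deposited read counts without normalization. A read that aligns to several similar genes may be counted at each. Which annotation was used, whether strand was considered and which test gave the study's p-values are not given in the sources used here. Library totals and floors stand with the levels.

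Diets were compared with edgeR 4.0.16 in R 4.3.3 (filterByExpr, minimum count 10 and minimum total count 15; TMM; glmQLFit and glmQLFTest; Benjamini-Hochberg adjustment over all genes tested). Standard errors are the ratio of the log2 fold change to the square root of F. Members under the filter were taken from the same fit on all genes with a count. The common biological coefficient of variation was 0.126, and 44 entries repeat an earlier symbol. Libraries of a diet differed beyond sampling noise, and all 6 were kept as replicates. This spread does not tell biological from technical differences. The chi-square per degree of freedom was 3.58 between NCD replicates 1 and 2, and 9.74 and 13.4 between these and NCD replicate 3. It was 3.96 between HFD replicates 1 and 2, and 17.1 and 15.0 between these and HFD replicate 3. Same-numbered libraries did not deviate together (r = -0.03, 0.05 and -0.06 for numbers 1, 2 and 3), so the numbers were not used as a block. Alternatives were DESeq2 1.42.0, limma 3.58.1 on quantile-normalized log2(CPM + 1), robust dispersion estimates, a block on the replicate number, scaling by upper quartile or by library size, omission of genes over 2% of a library, omission of each library in turn, and a filter of 10 counts in all libraries or none.

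Genes named are the 10 members and, of each pathway list, those with an unadjusted p under 0.05 and the most abundant one, with marker genes beside results. Other genes were singled out after their values were seen. The members and lists were chosen with earlier results of these data known. Gene positions are from GENCODE vM21 on GRCm38. The fits were tested on simulated counts of genes past the filter, drawn with the same dispersion for every gene and without an outlying library. Genes under the filter were not covered by that test. Plots used Python 3.11.15 and matplotlib 3.10.9.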

Additional observations from a re-analysis of the deposited data

How the results depend on the processing

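No receptor gene had an adjusted p under 0.05 under any alternative, and the number with an unadjusted p under 0.05 was 0 under all but 1, being 1 (Npy2r) without HFD replicate 2, so it ran from 0 to 1 when 1 library was left out. Signs changed only when a library was left out. Over these settings the log2 fold change ran from -0.19 to 0.50 for Mc4r, from -0.042 to 0.58 for Npy5r, from -0.65 to 0.52 for Hcrtr2, from -0.43 to 0.085 for Lepr, from -0.16 to 0.024 for Npy1r and from -0.80 to 1.70 for Ghsr. The cause was not tested. The median over the members ran from -0.16 to 0.16. Per kilobase of transcript, 5 of the 10 genes held the place in the order of levels that they held in CPM.

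With a replicate block the log2 fold change of Npy2r was 0.36 and that of Mc4r 0.24 (edgeR), no call on a member changed, and 371 genes had an unadjusted p under 0.05 in place of 507; of the other feeding receptors tested, 0 had one in place of 1 (Ramp1). DESeq2 gave 2 genes with an adjusted p under 0.05 over all genes, the fit without a filter 23 and the fit without NCD replicate 3 gave 3, none of them a member. Of the 23, 4 were pituitary markers, among them Prl with 956 counts in HFD replicate 3 and 0 to 5 in the others. In the fit without a filter, a high count in 1 library can therefore give a call. The values of Mc3r, Ghsr, Hcrtr2, Lep, Nmbr and Calcr come from that fit. With no filter, 4 ligand genes (Lep, Pmch, Hcrt and Pomc) had an unadjusted p under 0.05, as did 4.76% of 18936 genes. The standard error of Hcrt was 0.22 in place of 0.44. With the filter, the count of ligands was 0 of 4 with all libraries and 3 of 4 without HFD replicate 2. It was 1 without NCD replicate 2 or HFD replicate 1, and 0 with any other library left out. Over all genes, 561 of 13920 had such a p without HFD replicate 2. The numbers were 571 of 13886 without NCD replicate 2 and 773 of 14163 without HFD replicate 1. The alternatives for the lists and for the NPY receptor shares were chosen after seeing the data. Lepr, Hcrtr2, Mc3r and Ghsr have no value with at least 10 counts in every library, and Glp1r in no fit.

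Lepr, Hcrtr2, Mc3r and Ghsr had 0 to 19 counts in a library and standard errors of 0.51 to 1.18 on the log2 scale. Their within-diet chi-square per degree of freedom was 0.567, 3.37, 1.68 and 2.92, in that order. The part of depth in these errors was not tested.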

Other observations

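Of the other feeding receptors, Ramp3, a second partner of the calcitonin receptor, had 323, 375 and 296 counts on NCD and 296, 394 and 360 on HFD. Its CPM values did not overlap between the diets, with a log2 fold change of 0.28 and a standard error of 0.13 (adjusted p = 0.979, edgeR). Calcr, the calcitonin receptor itself, had 6, 7 and 3 counts on NCD and 9, 10 and 10 on HFD, again without overlap in CPM (log2 fold change 1.04, SE 0.73, adjusted p = 0.941, edgeR without a filter). Grpr, the gastrin-releasing peptide receptor, had 10, 11 and 18 counts on NCD and 7, 10 and 1 on HFD, also without overlap in CPM, with a log2 fold change of -0.91 (SE 0.59, adjusted p = 0.979, edgeR). Of the 13 tested genes of this list, 2 (Ramp3 and Grpr) had groups without overlap, beside 8.81% of the 13771 genes past the filter. The groups of Ramp2, also of this list, overlapped (log2 fold change 0.24, SE 0.18, adjusted p = 0.979, edgeR). Calcr was under the filter, and the share among such genes was not computed. Ramp2, Ramp3, Calcr and Grpr were picked after their values were seen.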
